A study of Mus musculus with 8 samples.

Results

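The genes described here are 34 genes of fibroblasts, pericytes and the extracellular matrix, out of 37074 genes on the array. They were taken by name from the deposited scanner files, with control spots left out, and each gene was read from the probe with the highest mean over the 8 arrays. All 34 were among the 25905 genes whose probe was well above background on at least 2 arrays. By role they comprised 5 fibrillar collagens, 3 other collagens, 6 basement membrane genes, 3 small leucine-rich proteoglycans, 7 matrix glycoproteins, 4 genes of matrix enzymes and their inhibitor, 2 insulin-like growth factor genes and 4 mural cell genes.

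The study used C57Bl/6J mice and RNA that the labels assign to astrocytes of the spinal cord. Wild-type mice, titled FL or F/F, were set beside mice deficient in connexin 47 (Cx47), titled icKO. Each genotype was profiled naive, with experimental autoimmune encephalomyelitis (EAE, the mouse model of multiple sclerosis), with EAE and the anti-inflammatory drug iguratimod, and in the chronic phase of EAE. Each of the 8 groups was 1 single-colour array. The titles of both chronic arrays, and of no others, also carry p50, which the labels do not explain. The driver and timing of the deletion, the age of the mice and how the cells were isolated were not given in the sources used here, and no label says that arrays came from separate animals. The p-values below therefore measure only the spread between these arrays, which may be technical. The genotypes served as the repeats of each condition, and the conditions as the repeats of each genotype. A response to a condition that differed between the genotypes thus counted as spread.

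Collagens, laminins, nidogen, fibronectin and proteoglycans are secreted and assembled into the interstitial matrix and into the basement membranes that surround blood vessels and underlie the glial border. In the central nervous system, the cells best known for making them are the fibroblasts of the meninges and of the perivascular space, pericytes and vascular smooth muscle, endothelial cells and, for basement membrane components and several glycoproteins, astrocytes. In inflamed or injured spinal cord, fibroblasts and pericytes are known to deposit matrix in the lesion.

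Values are log2 signals relative to the 75th percentile of the array, so a value of 0 is that percentile. The share of spots well above background ranged from 59.7% to 72.0%, and no spot was saturated. Both chronic arrays were on slide 2 and the other 6 on slide 1, and the slope of the spike-in controls was 0.76 on slide 2 against 0.92 to 1.07 on slide 1. Against EAE, the tertile of all tested genes with the lowest level on slide 1 had a median difference of 0.82 on slide 2. The tertile with the highest level had one of -0.22. The level includes the EAE arrays that are then subtracted, and the filter admits genes well above background on only 2 arrays. Part of these medians can thus follow from how the tertiles were set, and that part was not tested. Chronic phase and slide cannot be told apart. All 8 listed neuron markers and all 8 oligodendrocyte markers were well above background on every array, as were all 11 astrocyte markers.

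**Figure D1:**
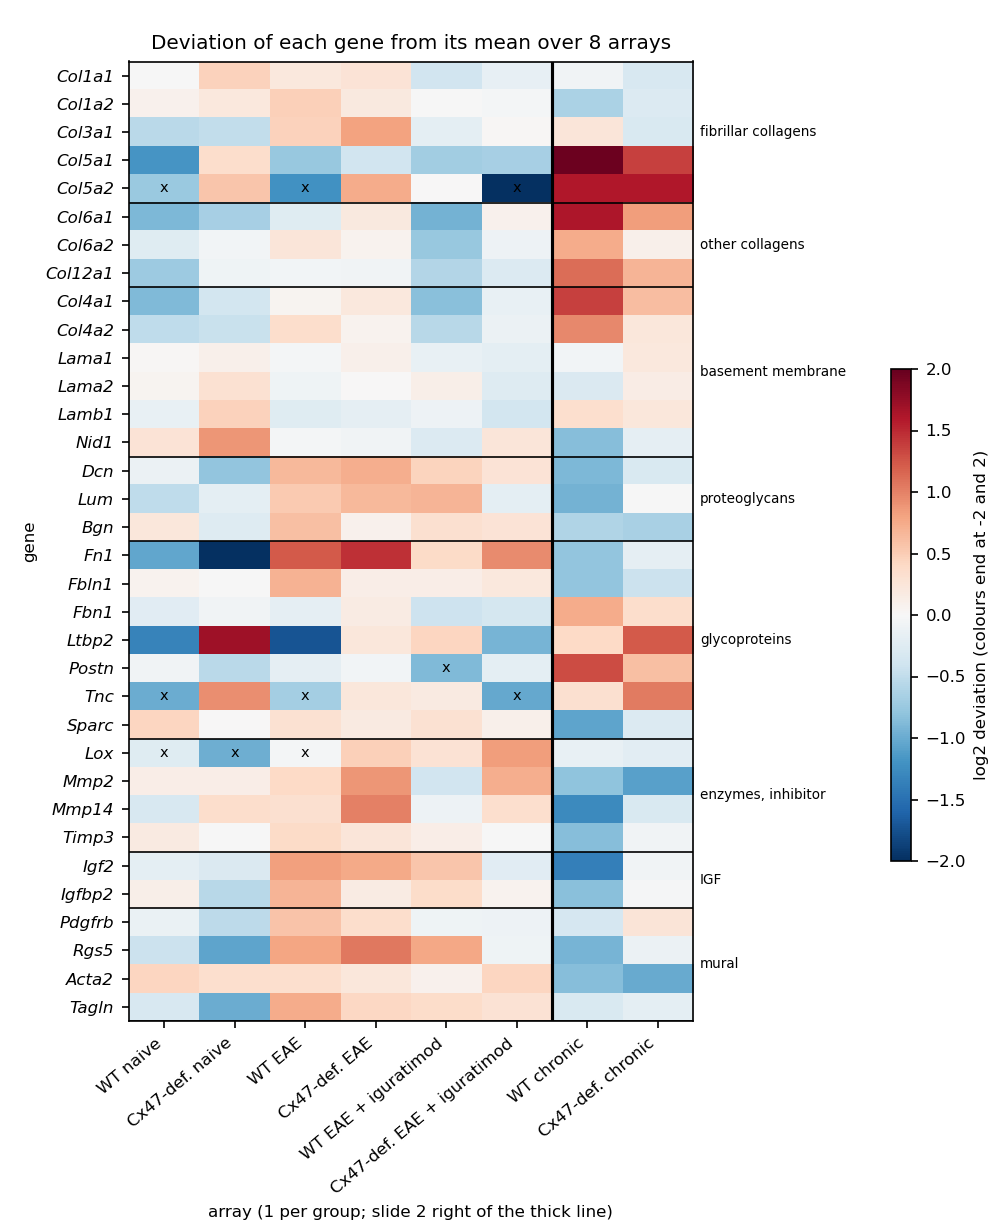
Log2 deviation of each of the 34 genes (rows, grouped by role) from its own mean over the 8 arrays (columns, 1 array per group), with crosses where the probe was not well above background. Fn1, Rgs5, Tagln, Dcn and Igf2 are above their mean on both EAE arrays, and Col5a1, Col6a1 and Col4a1 are above theirs on both chronic arrays.

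The first comparison asked how matrix genes stood in EAE against naive mice. Fibronectin (Fn1), a glycoprotein that links cells to collagen, had the largest difference, 7.25-fold. Genes of pericytes and smooth muscle (Rgs5, Tagln), a fibrillar collagen (Col3a1), decorin (Dcn) and insulin-like growth factor 2 (Igf2) were each more than 2-fold higher by the fitted difference. None of these passed the test after adjustment. Other genes of the same roles did not all follow. Of the mural genes, Pdgfrb was at 0.79, and Acta2 at -0.11 with its first probe and 2.37 with its second. The fibrillar collagens Col1a1, Col1a2, Col5a1 and Col5a2 were at 0.02, 0.19, -0.16 and -0.14. The wider pattern was one of direction: 25 of 34 genes had a positive difference, with a median of 0.35, against a median of -0.06 and 40.5% positive over all genes tested. The 34 genes were chosen with earlier results of these data known, and the part of that choice in this pattern was not tested.

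Limma called 0 of 34 genes in EAE against naive at an adjusted p under 0.05 (Benjamini-Hochberg over all genes tested). Over all genes tested, 0.247% were called higher and 0.00386% lower. At an unadjusted p under 0.05, 7 of the 34 genes were higher and 1 was lower, and over all genes 1400 were higher and 455 lower. Both EAE arrays lay above both naive arrays for 18 of 34 genes (52.9%), against 13.5% of all genes tested. Both lay below for 4 of 34 (11.8%), against 16.7% of all genes. In each genotype on its own, the median difference was 0.41 in wild-type and 0.30 in Cx47-deficient mice.

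Among the glycoproteins, Fn1 stood at -0.48 on the naive, 1.77 on the EAE, 0.93 on the iguratimod and -0.24 on the chronic wild-type array. On the Cx47-deficient arrays it stood at -1.45, 2.0, 1.5 and 0.37 in the same order. Series of 4 values below keep this order of naive, EAE, iguratimod and chronic. Both EAE arrays were above all other arrays, and both naive arrays were below all others. The fitted difference between EAE and naive was 2.86 ± 0.43 (SE), with an adjusted p of 0.0927 in limma and of 0.0295 to 0.479 over 16 alternative settings. Fn1 was called with normexp background correction (2.57, adjusted p = 0.0295), with median centring (2.90, adjusted p = 0.0379) and when only genes well above background on all 8 arrays were tested (adjusted p = 0.0432).

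A second Fn1 probe spans an intron. Its sequence is shown because it is a repeat measurement, on the same arrays, of the largest difference in EAE.
Fn1 probe A_51_P100856, mm9 chr1:71637422-71639659, minus strand: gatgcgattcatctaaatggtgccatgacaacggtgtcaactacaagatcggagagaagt
This probe, well above background on 7 of 8 arrays, stood at -4.42, -2.19, -3.22 and -4.44 on the wild-type arrays and at -5.90, -2.15, -2.66 and -5.13 on the Cx47-deficient arrays. The mean difference between EAE and naive was 2.99 with this probe and 2.86 with the first. Of 2 further Fn1 probes, each above background on 3 arrays, A_55_P2743309 differed by 2.53 and A_52_P237357 by 1.44.

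The other glycoproteins showed no common course in EAE. Ltbp2, which binds elastic microfibrils, stood at -2.51, -2.90, -0.75 and -0.77 on the wild-type arrays and at 0.53, -0.94, -2.10 and 0.06 on the Cx47-deficient arrays, without order by condition. Periostin (Postn), which binds collagen during fibrosis, stood at -4.37, -4.48, -5.18 and -3.00 in wild-type and at -4.84, -4.35, -4.50 and -3.71 in Cx47-deficient mice. The chronic arrays were its highest and the wild-type iguratimod array was not well above background. Tenascin C (Tnc), a glycoprotein of injured tissue, stood at -6.01, -5.70, -4.83 and -4.70 in wild-type and at -4.08, -4.79, -6.03 and -3.97 in Cx47-deficient mice. It was not well above background on the wild-type naive, wild-type EAE and Cx47-deficient iguratimod arrays. Fbln1, Fbn1 and Sparc ranged over 1.16 to 1.49 between their lowest and highest arrays, and their differences between EAE and naive were 0.02 to 0.38.

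Among the mural genes, Rgs5, a regulator of G protein signalling that marks pericytes, stood at -1.95 on the naive, -0.73 on the EAE, -0.74 on the iguratimod and -2.45 on the chronic wild-type array. On the Cx47-deficient arrays it stood at -2.58, -0.46, -1.60 and -1.63. Transgelin (Tagln), an actin-binding protein of smooth muscle, stood at -0.54, 0.53, 0.16 and -0.51 in wild-type and at -1.21, 0.20, 0.08 and -0.41 in Cx47-deficient mice. For both genes each EAE array was above each naive array. The difference between EAE and naive was 1.67 ± 0.45 (SE) for Rgs5 (limma adjusted p = 0.355, 0.206 to 1 over 16 alternatives) and 1.23 ± 0.24 for Tagln (limma adjusted p = 0.156, 0.0774 to 0.807). Pdgfrb, the PDGF receptor that pericytes need for recruitment to vessels, stood at -2.0, -1.30, -1.96 and -2.21 in wild-type and at -2.40, -1.52, -1.97 and -1.61 in Cx47-deficient mice, and its difference was 0.79. Its EAE arrays were the highest and did not overlap the naive arrays.

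For Acta2, smooth muscle actin, the value depended on the probe. The probe with the highest mean stood at 2.37, 2.27, 2.03 and 1.09 on the wild-type arrays and at 2.28, 2.17, 2.37 and 0.93 on the Cx47-deficient arrays, with a difference of -0.11 between EAE and naive. Both EAE arrays lay just below both naive arrays. This probe spans an intron, and its sequence is shown because the Acta2 values of all fits rest on it.
Acta2 probe A_51_P450957, mm9 chr19:34322995-34326249, minus strand: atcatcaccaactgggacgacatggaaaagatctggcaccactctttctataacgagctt
The second Acta2 probe, A_52_P420504, was also well above background on all 8 arrays. It stood at -4.39, -2.40, -2.87 and -3.57 in wild-type and at -4.51, -1.75, -3.35 and -3.31 in Cx47-deficient mice. Its mean difference between EAE and naive was 2.37, and its EAE arrays were above all others.

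**Figure D2:**
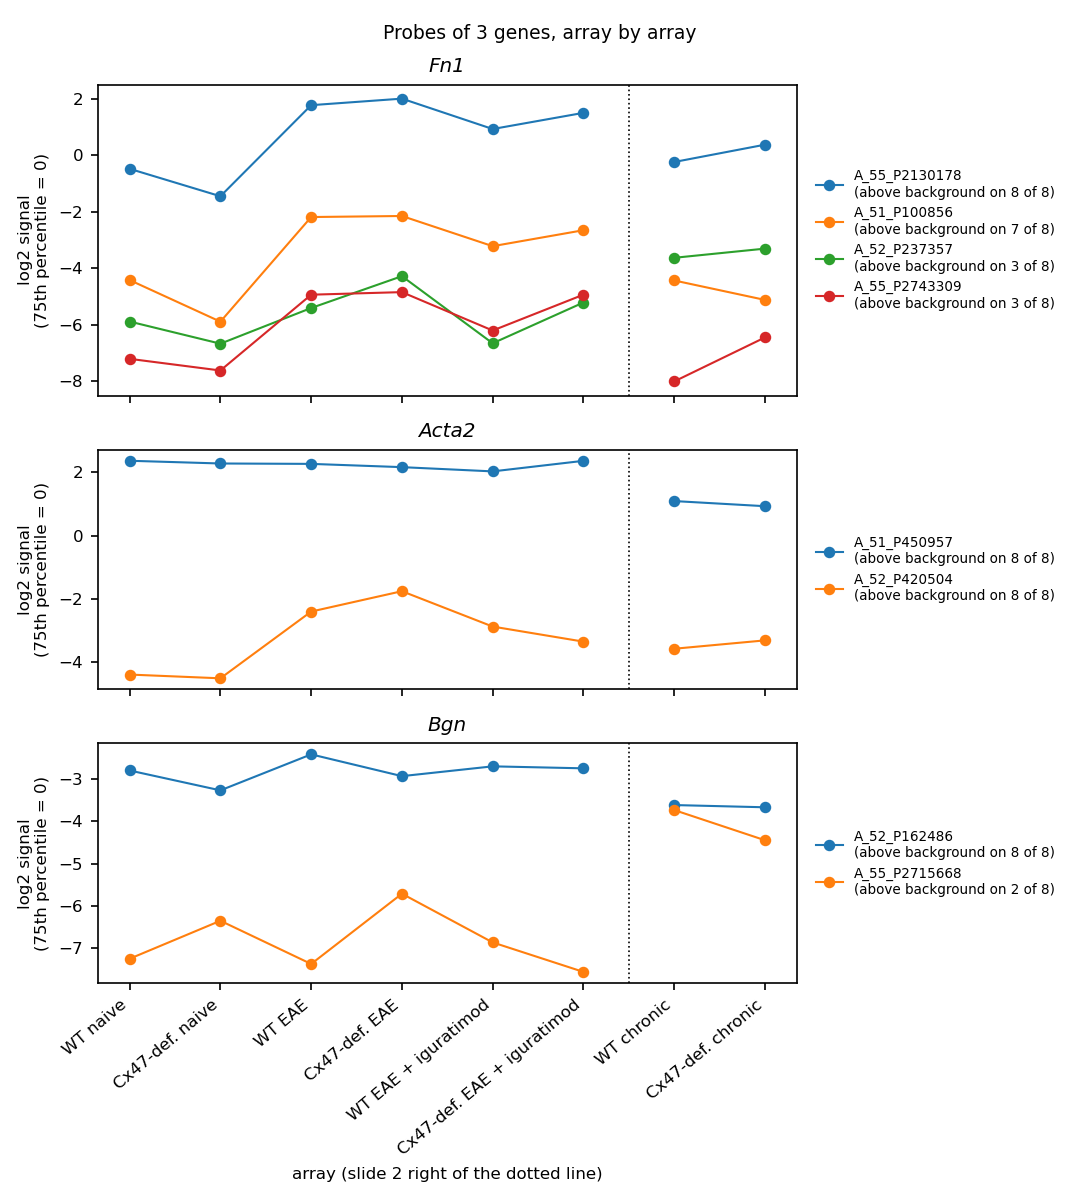
Log2 signal of each probe of Fn1, Acta2 and Bgn that was well above background on at least 2 arrays, on each of the 8 arrays (1 per group; lines join the arrays of a slide only to guide the eye). The upper 2 Fn1 probes have both EAE arrays above both naive arrays, the lower Acta2 probe differs by 2.37 between EAE and naive where the upper differs by -0.11, and the second Bgn probe is well above background only on the chronic arrays.

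The proteoglycans bind collagen fibrils and set their spacing. Decorin (Dcn) stood at 0.34, 1.1, 0.90 and -0.43 in wild-type and at -0.33, 1.19, 0.73 and 0.16 in Cx47-deficient mice, with a difference of 1.14 ± 0.32 (SE) between EAE and naive (limma adjusted p = 0.388, 0.203 to 1 over 16 alternatives), and of 0.72 without the Cx47-deficient naive array. Lumican (Lum) stood at -4.14, -3.11, -2.95 and -4.59 in wild-type and at -3.84, -2.98, -3.84 and -3.65 in Cx47-deficient mice, with a difference of 0.94. For both, the EAE arrays lay above the naive arrays. Biglycan (Bgn) stood at -2.80, -2.41, -2.70 and -3.61 in wild-type and at -3.27, -2.93, -2.75 and -3.67 in Cx47-deficient mice; its naive and EAE arrays overlapped, and the difference was 0.36.

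Among the fibrillar collagens, the main tensile fibres of connective tissue, Col3a1 alone was more than 2-fold higher in EAE by the fitted difference. It stood at -4.15, -3.14, -3.79 and -3.36 in wild-type and at -4.10, -2.81, -3.59 and -3.90 in Cx47-deficient mice. The 2 EAE arrays were its highest and the 2 naive arrays its lowest. The difference was 1.15 ± 0.26 (SE; limma adjusted p = 0.226, 0.144 to 0.884 over 16 alternatives). Its partner in heterotypic fibres, Col1a2, stood at 0.56, 0.96, 0.46 and -0.17 in wild-type and at 0.68, 0.66, 0.43 and 0.21 in Cx47-deficient mice, with a difference of 0.19, and Col1a1 differed by 0.02. Col5a2, which encodes a chain of the collagen that nucleates fibrils, stood at -5.92, -6.38, -5.17 and -3.58 in wild-type and at -4.63, -4.43, -7.73 and -3.58 in Cx47-deficient mice. It was not well above background on the wild-type naive, wild-type EAE and Cx47-deficient iguratimod arrays. Col5a1, a chain of the same collagen as Col5a2, stood at -3.26, -2.84, -2.78 and -0.13 in wild-type and at -1.74, -2.47, -2.74 and -0.71 in Cx47-deficient mice, so that both chronic arrays were its highest.

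Both collagen genes and Acta2 were looked up in the RefSeq promoter table (GRCm38.p6), which held entries for 23 of the 34 genes. The 250 bases before the start are shown for Col3a1, which differed in EAE, for its fibre partner Col1a2, which differed less, and for Acta2. Capitals mark matches to TATAAA and to CAGAC, a Smad element, on either strand (GTCTG is CAGAC on the opposite strand); the motifs do not overlap each other.
Col3a1, GRCm38.p6 chr1:45311288-45311537, plus strand: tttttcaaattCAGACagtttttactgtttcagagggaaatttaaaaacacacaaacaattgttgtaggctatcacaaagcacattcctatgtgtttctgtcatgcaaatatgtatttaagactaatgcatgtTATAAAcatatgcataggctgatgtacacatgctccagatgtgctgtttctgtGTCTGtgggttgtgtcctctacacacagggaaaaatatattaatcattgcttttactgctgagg
Col1a2, GRCm38.p6 chr6:4505368-4505617, plus strand: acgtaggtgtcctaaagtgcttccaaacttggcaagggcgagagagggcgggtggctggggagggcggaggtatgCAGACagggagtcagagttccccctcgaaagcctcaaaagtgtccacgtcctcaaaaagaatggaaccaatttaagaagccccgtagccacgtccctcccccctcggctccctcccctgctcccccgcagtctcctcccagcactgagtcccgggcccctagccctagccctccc
Acta2, GRCm38.p6 chr19:34255374-34255623, minus strand: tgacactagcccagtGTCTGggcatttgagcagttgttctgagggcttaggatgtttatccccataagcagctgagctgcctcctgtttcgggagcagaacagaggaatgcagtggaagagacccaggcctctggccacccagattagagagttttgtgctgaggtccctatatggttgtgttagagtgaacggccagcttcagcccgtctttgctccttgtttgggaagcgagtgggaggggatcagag
The 23 genes had 31 promoters in the table. TATAAA was present in 4 of the 31 (12.9%), of Col3a1, Postn and Tnc, against 12.4% of all 32851 promoters. CAGAC was present in 18 of 31 (58.1%), of 15 genes, against 42.2% of all promoters. The CArG box, the SRF site, was searched for only in its strict form, CC and GG around A and T bases alone. That form was present in 2 of 31 (6.45%), of Igf2 and Lama2, against 1.47% of all promoters. Looser forms were not searched for, so the count does not say that Acta2 or other genes lack the site. These matches describe letters and no binding was measured.

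The basement membrane genes divided. The type IV collagen genes Col4a1 and Col4a2, which form the network of every basement membrane, start 21 bases apart on opposite strands of chromosome 8 (GRCm38.p6). Col4a1 stood at -2.52, -1.58, -2.47 and -0.26 in wild-type and at -2.0, -1.42, -1.79 and -1.02 in Cx47-deficient mice. Col4a2 stood at -2.05, -1.19, -2.10 and -0.59 in wild-type and at -2.0, -1.47, -1.66 and -1.32 in Cx47-deficient mice. Both had EAE arrays above naive arrays, with differences of 0.76 and 0.69, and both had their highest value on the wild-type chronic array. Nidogen 1 (Nid1), which joins laminin to type IV collagen, stood at -1.03, -1.35, -1.60 and -2.17 in wild-type and at -0.43, -1.38, -1.07 and -1.50 in Cx47-deficient mice. It was the gene lower in EAE at an unadjusted p under 0.05, by -0.63 (limma adjusted p = 0.628). Laminin beta 1 (Lamb1) stood at 0.47, 0.39, 0.53 and 0.97 in wild-type and at 1.09, 0.45, 0.26 and 0.85 in Cx47-deficient mice, with a difference of -0.36. Lama1 and Lama2 ranged over 0.41 and 0.60 across the arrays.

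The other collagens differed in EAE by less than 2-fold. Col6a1, of the beaded-filament collagen VI, stood at -0.39, 0.26, -0.44 and 2.13 in wild-type and at -0.16, 0.70, 0.59 and 1.34 in Cx47-deficient mice. Col6a2 stood at -3.60, -3.12, -4.11 and -2.62 in wild-type and at -3.42, -3.29, -3.46 and -3.25 in Cx47-deficient mice. Col12a1, which associates with fibrils, stood at -4.45, -3.77, -4.30 and -2.60 in wild-type and at -3.80, -3.78, -3.99 and -3.04 in Cx47-deficient mice. For all 3 the EAE arrays lay above the naive arrays, by 0.31 to 0.76, and the wild-type chronic array was the highest of all.

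All 4 genes of matrix enzymes and their inhibitor had positive differences in EAE. Mmp14, a membrane-bound protease that activates the Mmp2 pro-enzyme, stood at -4.10, -3.47, -3.88 and -5.06 in wild-type and at -3.42, -2.78, -3.44 and -4.09 in Cx47-deficient mice, with a difference of 0.64. Mmp2, a gelatinase, stood at -3.48, -3.22, -4.00 and -4.41 in wild-type and at -3.48, -2.72, -2.88 and -4.70 in Cx47-deficient mice, with a difference of 0.51. Timp3, a matrix-bound inhibitor, stood at 1.67, 1.88, 1.63 and 0.65 in wild-type and at 1.48, 1.74, 1.49 and 1.42 in Cx47-deficient mice, with a difference of 0.23. Lox, which cross-links collagen, stood at -5.47, -5.26, -4.94 and -5.38 in wild-type and at -6.20, -4.76, -4.39 and -5.43 in Cx47-deficient mice. It was not well above background on either naive array or on the wild-type EAE array. Dim values were then raised to the lowest signal well above background on their array, or kept if higher. EAE minus naive was then -0.19 in wild-type mice, where both arrays were dim. It was 0.71 in Cx47-deficient mice, where only the EAE array measured the gene.

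Insulin-like growth factor 2, a growth factor of meninges and choroid plexus, stood at -2.42, -1.40, -1.66 and -3.58 in wild-type and at -2.50, -1.47, -2.44 and -2.29 in Cx47-deficient mice. Its EAE arrays lay above its naive arrays, by 1.02 ± 0.49 (SE; limma adjusted p = 0.873, 0.404 to 1 over 16 alternatives). Igfbp2, which binds insulin-like growth factors, stood at 0.53, 1.1, 0.79 and -0.42 in wild-type and at -0.14, 0.58, 0.49 and 0.40 in Cx47-deficient mice, with a difference of 0.64.

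Other genes of the same pathways were read from lists. Of the listed collagen-processing genes, Timp1, an inhibitor of matrix proteases, rose in EAE by 3.02 ± 0.21 (SE; limma adjusted p = 0.0349), 1 of 18 called. Of 17 tested further matrix glycoproteins 0 were called, 14 had a positive difference, and the largest was Tgfbi, a matrix protein induced by TGF-beta (2.70, limma adjusted p = 0.0539). Of 7 further basement membrane genes 0 were called and 7 were positive, with Nid2 at 1.23 and Lama5 at 0.79. Of 11 further collagens 0 were called and 7 were positive, with a median of 0.19. Of 12 TGF-beta pathway genes 0 were called, with the receptor gene Tgfbr2 at 1.20 and the ligand gene Tgfb1 at 1.04. Of 4 PDGF ligand genes 0 were called, with Pdgfb, the ligand of Pdgfrb, at 0.63. Of 8 further genes of the insulin-like growth factor system 0 were called, with Igfbp7 at 2.18 (limma adjusted p = 0.101).

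Markers of vessel and border cells stood higher on the EAE arrays too. The 15 endothelial markers had a summed signal of 10.5 and 6.10 on the naive arrays and of 30.7 and 30.9 on the EAE arrays, where 1 is the 75th percentile of an array. Their median difference was 2.11, all 15 were positive, and 0 were called (14 at an unadjusted p under 0.05). The 12 pericyte and smooth muscle markers summed to 3.60 and 3.05 on the naive arrays and to 6.00 and 6.31 on the EAE arrays, and 10 of 12 were positive. The 13 meningeal fibroblast markers found on the array summed to 7.99 and 7.81 and then to 11.9 and 11.3, and 11 of 13 were positive. The 10 monocyte and macrophage markers summed to 41.7 and 44.1 on the naive arrays and to 66.2 and 110 on the EAE arrays, and 1 of them, Plac8, was called higher. The 11 choroid plexus markers summed to 12.0 and 16.3 on the naive arrays and to 34.5 and 15.4 on the EAE arrays, the wild-type array being the high one. The part of any of these cells in the matrix gene values was not tested, and in RNA of many cells more cells of a type cannot be told apart from more RNA per cell.

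**Figure D3:**
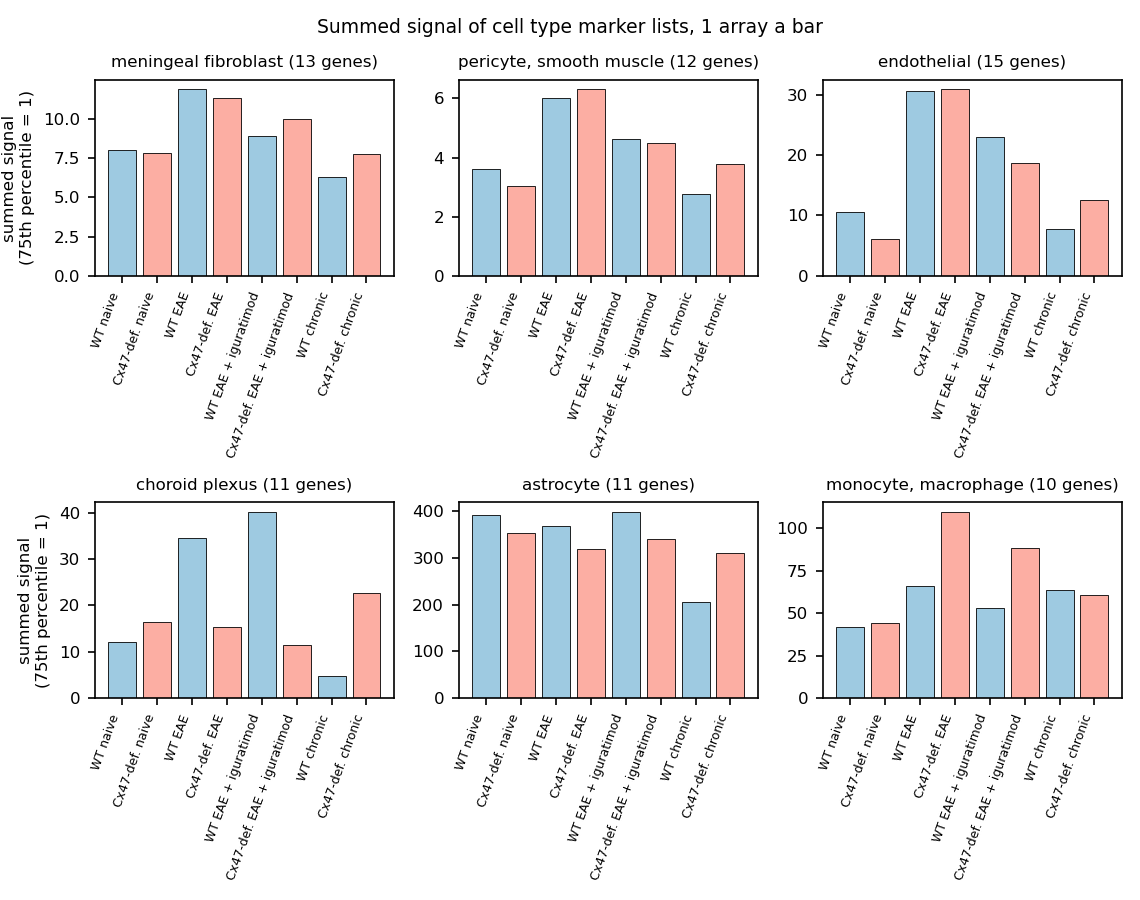
Summed linear signal (vertical axis, where 1 is the 75th percentile of the array) of 6 cell type marker lists on each of the 8 arrays, blue for wild-type and red for Cx47-deficient mice, with 1 array a bar and no error. Endothelial, pericyte and fibroblast sums are highest on the EAE arrays; the astrocyte sum is 206 on the wild-type chronic array and 310 to 399 on the others.

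The second comparison asked whether matrix genes differed in EAE when mice had iguratimod. It shares the EAE arrays with the comparison above, so a low or high value on an EAE array moves both. Limma called 0 of 34 genes, and 0% of all genes tested were called higher and 0% lower. At an unadjusted p under 0.05, 0 of the 34 genes were higher and 2 lower, and over all genes 139 were higher and 407 lower. The median difference was -0.36, against -0.01 over all genes, and 31 of 34 genes were negative. Both iguratimod arrays lay below both EAE arrays for 17 of 34 genes (50%), against 12.8% of all genes tested, and above for 0 of 34, against 11.8%. With median centring 8 of 34 lay below, against 6.42% of all genes.

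The 2 genes at an unadjusted p under 0.05 were Col3a1, at -0.72 (-0.65 in wild-type and -0.78 in Cx47-deficient mice), and Mmp14, at -0.54 (-0.41 and -0.67). Fn1 was at -0.85 in wild-type and -0.50 in Cx47-deficient mice. The genes with a positive difference were Ltbp2, Lox and Nid1, at 0.50, 0.34 and 0.03. Rgs5 was at -0.01 in wild-type and -1.14 in Cx47-deficient mice. Timp1, which was called in EAE, was at -0.93 with iguratimod and was not called. The endothelial sum was 22.9 and 18.7 on the iguratimod arrays against 30.7 and 30.9 on the EAE arrays, and the pericyte sum 4.62 and 4.49 against 6.00 and 6.31. Their part in these values was not tested.

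**Figure D4:**
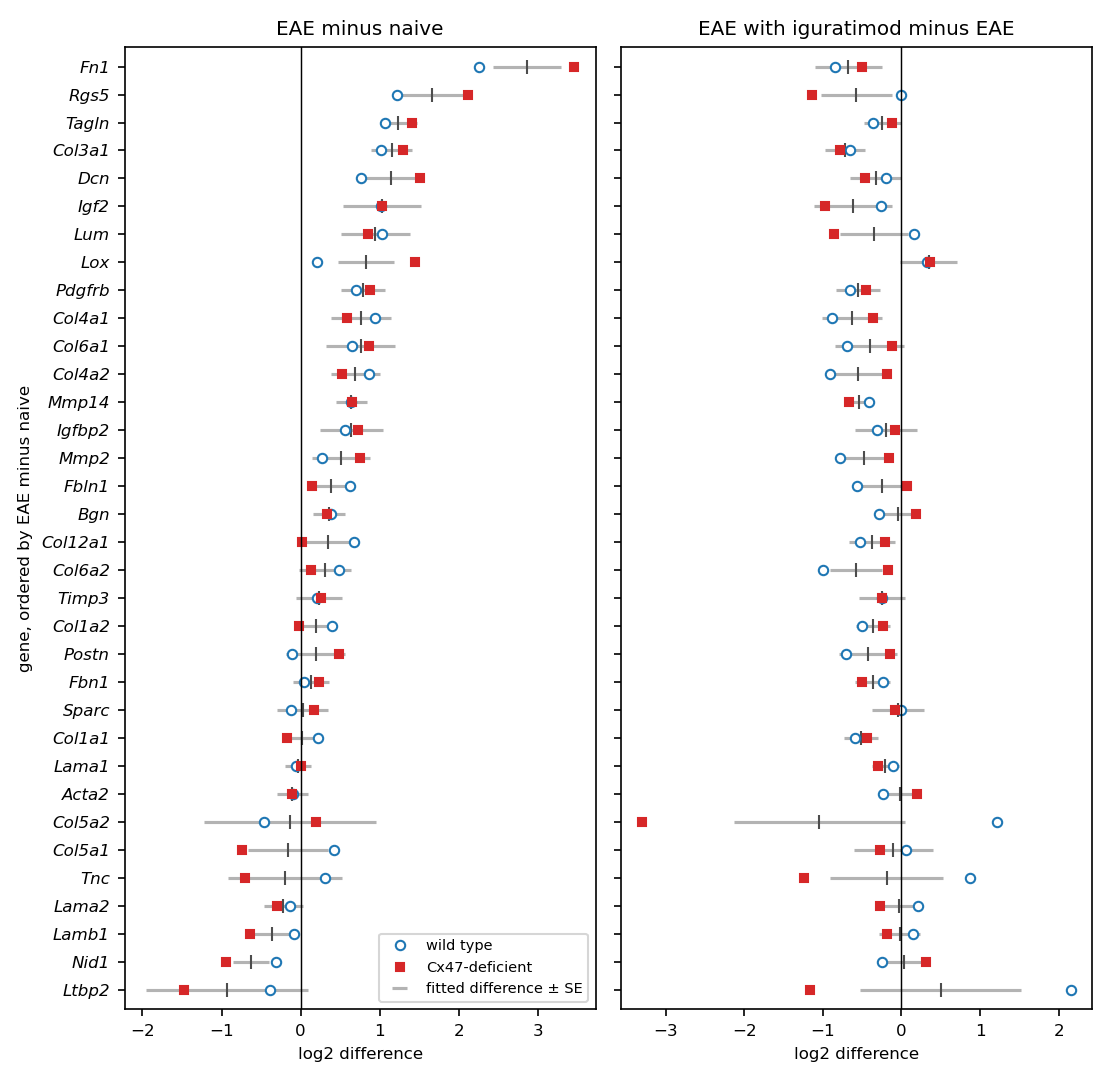
Log2 differences for the 34 genes between EAE and naive (left) and between EAE with iguratimod and EAE (right), in wild-type (open circles) and Cx47-deficient mice (filled squares), with the fitted difference and its SE in grey. Both panels use the same EAE arrays. On the left 25 of 34 fitted differences are positive and Fn1 is largest at 2.86; on the right 31 of 34 are negative.

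The third comparison set chronic EAE against EAE. Limma called 5 of 34 genes (14.7%), which is near the share of all genes tested (14.5%). By direction, 1 was called higher (2.94%), against 9.06% of all genes, and 4 lower (11.8%), against 5.43%. The matrix proteases Mmp14 and Mmp2 and smooth muscle Acta2 fell, the fibrillar collagen Col5a1 rose, and biglycan fell with 1 probe but not with the mean of its probes. The median over the 34 genes was -0.48, against 0.02 over all genes, and 13 of 34 were positive. With the mean of probes this median turned to 0.36. That setting averages in further probes well above background on as few as 2 arrays. One of them is the second Bgn probe, above background only on the chronic arrays. The turn can thus follow from which probes the filter admits, and this was not tested.

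Mmp14 fell by 1.45 ± 0.19 (SE; limma adjusted p = 0.0338), with -1.59 in wild-type and -1.31 in Cx47-deficient mice. Both chronic arrays were below both EAE arrays. Against the naive array of the same genotype, the chronic array was at -0.95 in wild-type and -0.66 in Cx47-deficient mice. Across genotypes, the Cx47-deficient chronic array (-4.09) was level with the wild-type naive array (-4.10). Mmp2 fell by 1.59 ± 0.37 (limma adjusted p = 0.0496), and its chronic arrays were its lowest. Acta2 fell by 1.20 ± 0.19 (limma adjusted p = 0.0386), with the second probe at -1.36. Bgn fell by 0.97 ± 0.20 (limma adjusted p = 0.0450), but a second Bgn probe, A_55_P2715668, was well above background only on the chronic arrays, at -3.73 and -4.45. With the mean of the probes, the Bgn difference was 0.74 (limma adjusted p = 0.118). Col5a1 rose by 2.23 ± 0.50 (limma adjusted p = 0.0481), to -0.13 and -0.71 from -2.84 and -2.47. Over 15 alternatives the adjusted p was 0.0136 to 0.256 for Col5a1 (8 called), 0.0263 to 0.279 for Bgn (5), 0.0182 to 0.251 for Mmp2 (6), 0.0141 to 0.226 for Mmp14 (12) and 0.0097 to 0.240 for Acta2 (8).

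The probes of Bgn and Mmp14 match 60 adjacent bases with no intron. They are shown because the Bgn probes disagreed and because Mmp14 was called in the most alternatives of the 5 genes.
Bgn probe A_52_P162486, mm9 chrX:70738554-70738613, plus strand: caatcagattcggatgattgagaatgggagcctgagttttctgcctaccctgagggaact
Mmp14 probe A_52_P304128, mm9 chr14:55058775-55058834, plus strand: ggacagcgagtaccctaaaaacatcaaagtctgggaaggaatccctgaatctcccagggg

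Other large differences were not called. Fn1 was at -1.82 ± 0.43 (SE; limma adjusted p = 0.0508, 0.0167 to 0.269 over 15 alternatives), Igf2 at -1.50 ± 0.49 (limma adjusted p = 0.0869, 0.0388 to 0.354), Rgs5 at -1.44 and Dcn at -1.28. On the positive side, Col5a2 was at 1.83 ± 1.09 (limma adjusted p = 0.256, 0.0794 to 0.794 over 14 alternatives), Ltbp2 at 1.56 ± 1.03 (limma adjusted p = 0.297, 0.122 to 0.709 over 15), Col6a1 at 1.25 and Postn at 1.06. Single arrays moved these values: Igf2 was at -0.70 without the wild-type and -2.30 without the Cx47-deficient chronic array, Col5a2 at 0.64 without the wild-type and 3.02 without the Cx47-deficient EAE array, and Ltbp2 at 1.00 without the wild-type EAE array. All 3 proteoglycans, all 4 mural genes, both growth factor genes and all 4 matrix enzyme genes had chronic arrays below their EAE arrays. All 3 other collagens were positive, and so were 2 of 5 fibrillar collagens and 4 of 6 basement membrane genes. Both chronic arrays lay below both EAE arrays for 20 of 34 genes (58.8%), against 36.2% of all genes tested, and above for 10 of 34 (29.4%), against 38.9%.

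Chronic differences are given by level here because the slides differed in the slope of the spike-in controls. Level and difference share the EAE arrays, so part of the medians can follow from the sorting. Neither that part nor the part of the slide was tested. Of 11 genes in the lowest tertile by level on slide 1, 6 had a positive chronic difference, with a median of 0.27 (0.82 over all genes of that tertile). Of 7 in the highest tertile 0 were positive, with a median of -0.91 (-0.22 over all). Leaving out single arrays lowered the calls among the 34 genes together with those over all genes, of which 3755 were called from all arrays. Without the wild-type EAE, the Cx47-deficient EAE or the wild-type chronic array 0 of the 34 were called, and 1 gene over the whole array. Without either iguratimod array 1 of the 34 was called, against 654 over all genes, and without the Cx47-deficient chronic array 1, against 1174. Without either naive array 4 were called, against 2442.

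**Figure D5:**
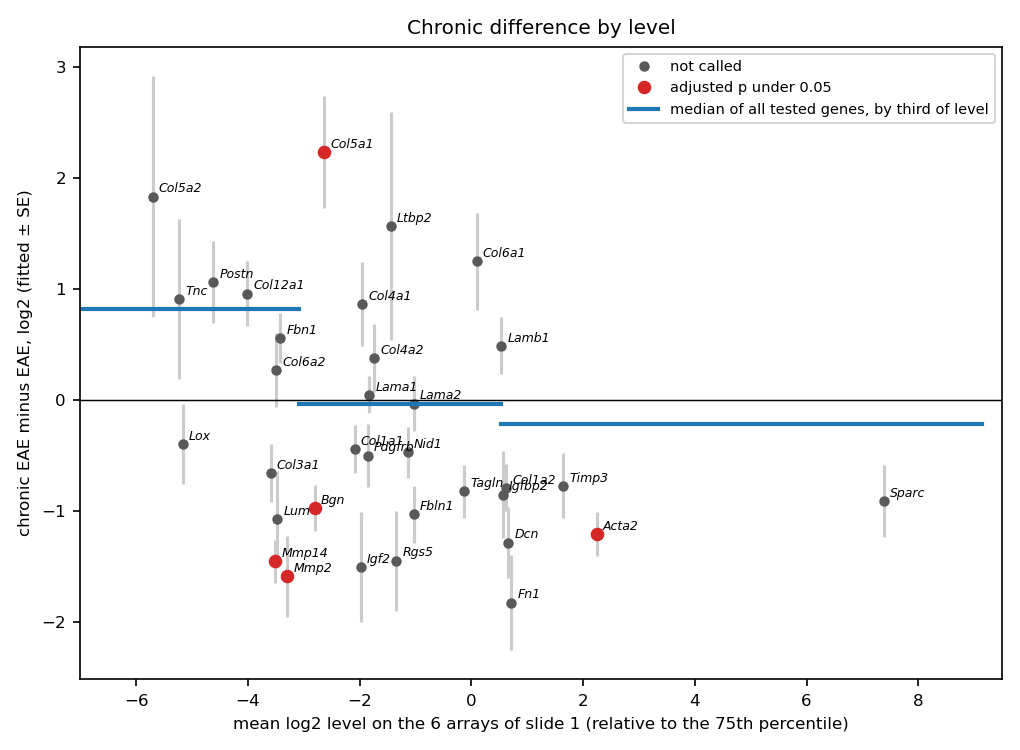
Fitted log2 difference between chronic EAE and EAE, with its SE, against the mean log2 level on the 6 arrays of slide 1, for the 34 genes (red where the adjusted p was under 0.05). Blue lines are the medians of all genes tested in tertiles of level, 0.82, -0.04 and -0.22. The EAE arrays enter both axes. All 7 genes of the highest tertile are below 0.

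Among the listed pathway genes a minority was called in the chronic phase, all lower, beside the 5.43% of all genes called lower. Of 18 collagen-processing genes 2 fell, Timp1 by 2.59 ± 0.21 (SE; limma adjusted p = 0.0239) and Mmp19 by 1.43. Of 12 TGF-beta pathway genes 2 fell, Tgfb1 by 1.71 and Tgfbr2 by 1.25. Of 17 further glycoproteins 2 fell, Tgfbi by 2.39 and Thbs2 by 2.16. Igfbp7 (1 of 8) fell by 1.67 and Lamb2 (1 of 7) by 1.48, and 0 of 4 PDGF ligand genes were called. Of the meningeal fibroblast markers, Aldh1a2, Slc22a6 and Mgp fell (3 of 13), and of the pericyte markers 0 of 12 were called. Of the endothelial markers Ly6c1 fell (1 of 15). The astrocyte markers Gfap and Gja1 fell too (2 of 11). Monocyte and macrophage markers had a median of -2.07, with Plac8, Lyz2, Ms4a7, Fcgr1, Adgre1 and Mrc1 called lower and Itgam higher (7 of 10). Oligodendrocyte markers had a median of -1.11, with Mbp, Mog and Cnp called lower and Ermn higher (4 of 8). Of the ependymal markers Dynlrb2 fell (1 of 6), and 0 of 8 neuron markers were called. Of the further collagens 0 of 11 were called. The marker sums on the chronic arrays were 7.82 and 12.6 for endothelial cells, 2.77 and 3.77 for pericytes, 6.32 and 7.76 for fibroblasts, 63.6 and 60.7 for monocytes and macrophages and 173 and 215 for oligodendrocytes, and their part in the matrix values was not tested.

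Chronic EAE was also set against naive. Limma called 0 of 34 genes, against 0.645% of all genes called higher and 0.212% lower, with 7 of the 34 higher and 7 lower at an unadjusted p under 0.05, and 4908 higher and 3545 lower over all genes. Col5a1 was at 2.08 ± 0.50 (SE; limma adjusted p = 0.0812), Col6a1 at 2.01 ± 0.44 (limma adjusted p = 0.0745), Col4a1 at 1.62 ± 0.38 (limma adjusted p = 0.0792) and Col12a1 at 1.3 ± 0.29 (limma adjusted p = 0.0762). Acta2 was at -1.31 ± 0.19 (limma adjusted p = 0.0570) with its first probe, but the second probe, A_52_P420504, went the other way. That probe stood at -4.39 on the naive and -3.57 on the chronic wild-type array, and at -4.51 and -3.31 on the Cx47-deficient arrays. The direction for Acta2 thus depended on the probe. Col5a2 was at 1.69 ± 1.09. Both chronic arrays lay above both naive arrays for 13 of 34 genes (38.2%), against 35.4% of all genes, and below for 9 of 34 (26.5%), against 31.2%. With normexp correction 6 of the 34 were called (17.6%), against 15.0% of all genes. Among genes well above background on all 8 arrays 7 of 30 were called (23.3%), against 8.89% of all genes. Col5a1 was at 1.28 and Col5a2 at 0.95 without the wild-type naive array, and Col6a1 at 1.33 and Col4a1 at 1.02 without the wild-type chronic array.

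The last comparison set Cx47-deficient against wild-type mice over the 4 pairs of arrays of one condition. Limma called 0 of 34 genes, against 0% of all genes higher and 0% lower, with 2 of the 34 higher and 0 lower at an unadjusted p under 0.05, and 862 higher and 285 lower over all genes. In 0 of 34 genes did the 4 Cx47-deficient arrays all lie above (0.228% of all genes) or all below (0.475%) the 4 wild-type arrays. The median difference was 0.07, and its sign turned with normexp (-0.0036) and with median centring (-0.10). Mmp14 was higher in Cx47-deficient mice in all 4 pairs, by 0.69 ± 0.14 (SE; limma adjusted p = 0.830). Nid1 was at 0.44 and higher in 3 of 4 pairs. Ltbp2 was at 1.12 ± 0.73 (limma adjusted p = 0.830) and Tnc at 0.59 ± 0.51 (limma adjusted p = 0.830). Without either naive array they were at 0.48 and 0.14, and without either iguratimod array at 1.94 and 1.18. Bgn was lower in all 4 pairs, with a difference of -0.27 ± 0.14 (limma adjusted p = 0.830), but of 0.0080 with the mean of the probes. Tagln was at -0.24 ± 0.17 (limma adjusted p = 0.830) and Igfbp2 at -0.17 ± 0.28 (limma adjusted p = 0.889), and without either naive array at -0.10 and 0.0022. Without either EAE array Igfbp2 was at -0.051, and without either chronic array at -0.49.

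Single pairs of arrays have no replicate and no test. A 2-fold difference was counted with a dim value raised to its array's floor. Among naive arrays Col5a1 and Ltbp2 were higher in the Cx47-deficient array, 2 of 33 genes compared, against 8.04% of all genes. In EAE Ltbp2 was higher (6.74% of all genes). With iguratimod Col6a1 and Mmp2 were higher (2.62%) and Ltbp2 lower (2.35%), and in the chronic phase Igf2 was higher (2.07%). In the naive, EAE and chronic pairs 0 of the 34 genes were lower, against 2.67%, 0.76% and 1.88% of all genes.

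The same limit was applied to conditions within a genotype. Percentages are shares of all genes compared. Between the EAE and naive arrays of wild-type mice, Col3a1, Fn1, Igf2, Lum, Rgs5 and Tagln were 2-fold higher, 6 of 31 genes compared, against 3.37% of all genes, and 0 were lower (1.94%). In Cx47-deficient mice Col3a1, Dcn, Fn1, Igf2, Rgs5 and Tagln were higher, 6 of 34 (5.10%), and Ltbp2 was lower (2.13%). With iguratimod against EAE, Ltbp2 was higher in wild-type mice (3.13%) with 0 genes lower (1.27%), and Col5a2, Ltbp2 and Rgs5 were lower in Cx47-deficient mice (3.56%) with 0 higher (0.324%). In the chronic phase against EAE, 7 of 34 genes were higher (17.9% of all genes) and 15 lower (12.3%) in wild-type mice. In Cx47-deficient mice 1 of 34 stood higher (11.9% of all genes) and 7 lower (5.56%). Those lower in both genotypes were Acta2, Dcn, Fn1, Mmp14, Mmp2 and Rgs5. Against naive, 8 of 34 genes were higher (16.3% of all genes) and 5 lower (9.44%) in wild-type mice. In Cx47-deficient mice 5 of 34 stood higher (8.74% of all genes) and 3 lower (2.33%).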

How the data were processed

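RNA was measured on 8 single-colour Agilent arrays, 1 per group. Intensity values in the deposited scanner files were background-subtracted by Feature Extraction 10.7.1.1, with probe positions on mm9, per the file headers. The submitters' processing notes name version 9.5.1.1, and the difference was not resolved. A deposited table of the authors' processed intensity values served as an alternative only. Unmapped value columns numbered 0. Other fields, flags of 0 or 1, were used as deposited.

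Log2 processed signals were centred on the array's 75th percentile, spots of a probe were averaged and outlier spots left out. The model of condition plus genotype over 8 arrays used limma 3.58.1 (R 4.3.3), with 3 residual and 2.12 prior degrees of freedom. Calls were made at 0.05 after Benjamini-Hochberg adjustment over the 25905 genes well above background on at least 2 arrays. A 2-fold limit was used for single pairs of arrays. Motifs were matched by sequence to the RefSeq promoter table of GRCm38.p6. Figures were drawn with matplotlib 3.10.9. The fit was tested on simulated data.

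The genes and all gene lists were chosen with earlier results of these data known. Per-array values are given for every called gene and for up to 4 genes of each role with the largest range; fitted differences with an adjusted p are given for called genes, and for up to 6 genes per fit that differed by at least 1 on the log2 scale with the same sign in both genotypes (in the genotype fit, up to 3 of each sign), others where they bear on these. From other lists, named genes are those called and up to 3 with the largest difference. Alternatives were another background correction, normalization, source of values, filter, probe rule, slide and leaving out each array; the normalization of the non-overlap counts was added after the data were seen. The level of the targeted gene is not reported here.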

Additional observations from a re-analysis of the deposited data

Results flagged for a closer look

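Ltbp2 moved in opposite directions in the 2 genotypes between EAE with iguratimod and EAE, by 2.15 in wild-type and by -1.16 in Cx47-deficient mice, a difference of -3.31. Each value rests on 1 array against 1 array, and the difference between the genotypes was not tested.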

How the results depend on the processing

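The direction of the EAE median (0.35) and of the iguratimod median (-0.36) was the same under every setting run. The EAE median was 0.16 with normexp and 0.48 with the mean of probes, and 1 gene was called with normexp, with median centring and with the filter on all 8 arrays (0.772%, 1.31% and 0.976% of all genes). The iguratimod median was -0.17 with normexp, -0.28 with quantile normalization, -0.27 with median centring and with the authors' values, and -0.37 with the mean of probes; 8 genes had arrays below without overlap with median centring. The chronic median against EAE (-0.48) was -0.72 with quantile normalization and with the authors' values, and -0.88 with median centring. It was -0.71 with the filter on all 8 arrays. It turned to 0.36 with the mean of probes, which takes in probes well above background on only 2 arrays. With normexp 14 genes were called (41.2%, against 29.2% of all genes), with median centring 13 (38.2% against 25.0%), with the filter on all 8 arrays 10 of 30 (33.3% against 23.3%) and with no filter 1 (2.94% against 2.29%). The chronic median against naive (0.18) turned to -0.061 with normexp, -0.057 with the filter on all 8 arrays, -0.080 with the authors' values, -0.083 with quantile normalization and -0.18 with median centring, and was 0.50 with the mean of probes; 6, 7 and 1 genes were called with normexp, with that filter and with median centring (15.0%, 8.89% and 4.02% of all genes). The genotype median (0.07) turned to -0.0036 with normexp and -0.10 with median centring. Over the 4 pairs of arrays of one condition there were 7 calls of a 2-fold difference between genotypes, for 5 genes, with Ltbp2 in 3 pairs. There were 3 such calls with normexp, 12 with no filter and 2 at 3-fold. Bgn turned to 0.74 (chronic against EAE) and 0.0080 (genotype) with the mean of probes, and Igfbp2 (genotype) to 0.0022 without either naive array (range over arrays left out -0.49 to 0.0022).

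Leaving out each array in turn, the medians were 0.34 to 0.43 in EAE, -0.38 to -0.24 with iguratimod, -0.56 to -0.31 (chronic against EAE, 0 to 4 genes called), -0.10 to 0.34 (chronic against naive) and 0.04 to 0.09 (genotype). A single array then stands for its arm and is assumed to vary like the others. Slide 1 alone gave no chronic comparison. The model compared conditions within genotype and genotypes within condition. Pairing by animal was not possible because each group is 1 array and the labels carry no replicate numbers. With median centring the median of all genes was -0.38 in chronic against EAE. With 8 arrays and 3 residual degrees of freedom, precision is limited by the number of arrays.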

Other observations

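Of the 34 genes, 22 had several probes on the array, with 48 further probes. Only 10 of these, for 7 genes, were well above background on all 8 arrays. The sign of the difference between EAE and naive was the same as with the first probe for 8 of the 10, and that between chronic EAE and EAE for 10 of the 10. The 2 exceptions in EAE were a second Acta2 probe, at 2.37 against -0.11, and the Col1a1 probe A_66_P101466, at -0.32 against 0.02. Further probes dim on some arrays were not counted, and some had the other sign. Between chronic EAE and EAE, Sparc probe A_55_P2713955 was at 1.92, against -0.91 with the first. Fn1 probe A_52_P237357 was at 1.38, but A_51_P100856 and A_55_P2743309 were at -2.61 and -2.34, against -1.82 with the first.

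On slide 1, 29 of the 82 probes of the 34 genes were dim on 5 or 6 of the 6 arrays. Of these, 8 (27.6%) were well above background on both chronic arrays, against 15.2% of 20356 such probes on the array. The wild-type chronic array was the highest of the 8 for 9 genes and the lowest for 11, and the wild-type EAE array was the highest for 8. The Cx47-deficient EAE array was the lowest for 0 genes.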
